A study of Mus musculus with 40 samples.

Results

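NRF2 targets and antioxidant enzymes were followed in bone marrow-derived macrophages (BMDMs) through a lipopolysaccharide (LPS) time course. The group holds 10 genes of the 27179 in the expression table, taken by gene symbol. The choice was made with earlier results of these data known. They are the transcription factor gene Nfe2l2, its repressor gene Keap1, and Hmox1, Nqo1, Gclc, Gclm, Srxn1, Txnrd1, Sod2 and Prdx1. The series asked how loss of Cpeb4, which encodes an RNA-binding protein that acts on mRNA tails, changes the macrophage transcriptome after LPS. RNA from 40 libraries was sequenced, 20 from wild type (WT) mice and 20 from mice lacking Cpeb4 in the whole body (Cpeb4-/-), with 4 male mice of each genotype on a mixed C57BL/6J and 129 background. Cells of each adult mouse, whose age was given no more closely, were differentiated for 7 days with L-cell conditioned medium as the source of M-CSF. They were then left unstimulated (0 hr) or given 10 ng/ml LPS from E. coli 0111:B4 for 1, 3, 6 or 9 hr, so that each of the 10 groups held 4 libraries. The labels put 2 mice of each genotype in batch 1 and 2 in batch 2, without saying what was done in a batch. No cage held both genotypes, so genotype and cage cannot be told apart.

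NRF2, the protein made from Nfe2l2, is held in the cytoplasm and marked for degradation by KEAP1. Oxidants and electrophiles modify KEAP1, NRF2 then enters the nucleus, pairs with a small MAF protein and binds antioxidant response elements near genes for glutathione synthesis, the thioredoxin system, heme breakdown and quinone reduction. In macrophages these enzymes limit the damage from the oxidants made after LPS, while Sod2 is better known as a target of NF-κB.

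All values are rlog levels, the regularized log2 counts that DESeq2 makes, in which differences of weakly expressed genes are drawn towards 0. A difference of 1 is therefore a doubling on that scale, and fold changes below are the antilog of such differences. The values are not per gene length, so levels are compared between libraries and not between genes. Library depth is unknown, since the table holds no counts. Differences were tested with limma across all genes whose mean rlog reached 2.32, and "passed" below means a Benjamini-Hochberg adjusted p under 0.05. All 10 genes were tested in every comparison. In bulk RNA, fewer cells with a transcript and less transcript in each cell cannot be told apart.

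The sequence TGACNNNGC (N for any base) is the core of the antioxidant response elements that NRF2 binds. The promoter windows were searched for it on both strands. RefSeq windows of GRCm38.p6, the assembly also called mm10, ran from 250 bases before to 50 bases after each transcript start. They were at hand for 8 of the 10 genes, and Hmox1 and Gclc were not among them. The core was found for 5 of the 8, in 5 of their 10 windows, against 12.4% of the 32851 windows in the table and 14.0% of its 27025 genes. The 4 matches upstream of a start and the 1 match downstream of it are printed 5′ to 3′ on the gene's strand, with the 9 matched bases in capitals.
Nfe2l2, chr2:75704865-75704913, minus strand, 240 bases before the start: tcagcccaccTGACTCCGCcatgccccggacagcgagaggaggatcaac
Gclm, chr3:122245393-122245461, plus strand, 134 bases before the start: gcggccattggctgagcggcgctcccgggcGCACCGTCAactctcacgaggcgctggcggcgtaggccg
Txnrd1, chr10:82859084-82859152, plus strand, 92 bases before the second of its 3 starts: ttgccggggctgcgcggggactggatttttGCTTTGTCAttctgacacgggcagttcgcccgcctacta
Prdx1, chr4:116685436-116685504, plus strand, 133 bases before the start: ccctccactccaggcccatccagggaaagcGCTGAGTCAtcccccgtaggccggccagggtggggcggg
Srxn1, chr2:152105542-152105570, plus strand, in the first exon from base 29 of the transcript: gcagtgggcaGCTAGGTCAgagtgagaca
The Nfe2l2 match reads on the gene's strand and the other 4 on the opposite one. The Nfe2l2 stretch also overlaps an exon of E030042O20Rik, and those of Gclm, Txnrd1 and Prdx1 touch no annotated exon. No match was found in the windows of Keap1, Nqo1 and Sod2, which says only that these letters are absent from 300 bases around their starts. A match describes the sequence and was not tested as a binding site.

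In mm10 the genes lie apart, Nfe2l2 on the minus strand at chr2:75675513-75704641, Srxn1 on the plus strand at chr2:152105516-152111376, Gclm on the plus strand at chr3:122245557-122270732 and Prdx1 on the plus strand at chr4:116685544-116700822. Hmox1 is at chr8:75093621-75100589 (plus), Nqo1 at chr8:107388225-107403206 (minus), Keap1 at chr9:21229730-21239361 (minus), Gclc at chr9:77754535-77794485 (plus), Txnrd1 at chr10:82833951-82897712 (plus) and Sod2 at chr17:13006846-13040063 (plus). Keap1 shares 510 exon bases with the antisense gene Gm16754. The library kit does not mark strand, so reads over those bases cannot be assigned to either gene. No other member shares exon bases with a second gene in the annotation.

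The targeted gene did not separate the genotypes at every time. Cpeb4 levels lay between 10.09 and 10.67 in WT and between 8.74 and 9.66 in Cpeb4-/- libraries at 6 hr (difference -1.27, SE 0.19, adjusted p = 0.00114), while the genotypes overlapped at 0, 1, 3 and 9 hr. Which exons the deletion removes was not given, so the whole-gene level is a weak check of the labels, and genotypes are used as labelled. The 8 macrophage markers, among them Adgre1, Csf1r and Lyz2, were at 8.89 or above in every library. The lists of other cell types were not uniformly low. Among the T cell genes Cd3e, Cd3d, Cd3g and Cd8a reached at most 1.50, while Cd4 ran from 5.32 to 7.22. Among the neutrophil genes Ly6g, Mpo and Elane stayed at 0.680 or below and Ltf at 3.43 or below, while S100a8 ran from 5.00 to 7.70, S100a9 from 3.93 to 6.01, Camp from 2.00 to 5.00 and Ngp from 2.22 to 4.59. Among the natural killer cell genes Ncr1 and Gzma stayed at 0.249 or below, while Klrb1c ran from 0.935 to 3.58, with a mean of 1.19 over the WT and 2.45 over the Cpeb4-/- libraries.

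At 6 hr of LPS, 7 of the 10 genes were higher in Cpeb4-/- than in WT BMDMs and 1 was lower, whereas none passed at 0 or 1 hr. Across all genes tested at 6 hr, 6.40% passed as higher and 9.92% as lower. In the interaction test given below, 3 of the 10 genes departed from their difference at 0 hr, against 2.94% of all genes. The largest differences at 6 hr were those of Gclm (1.50-fold), Nqo1 (1.47-fold), Srxn1 (1.42-fold) and Gclc (1.37-fold), and the gene that was lower was Keap1 (0.844-fold). The median difference of the 10 genes was 0.27 at 6 hr, against -0.015 for all genes tested, and it was 0.091, 0.11, 0.14 and 0.093 at 0, 1, 3 and 9 hr. For 6 of the 7 genes that were higher, and for Keap1, no library of one genotype overlapped the other, as held for 8.16% of all genes in the higher and 12.0% in the lower direction. Hmox1 was the exception. The 7 differences had the same sign in batch 1 and in batch 2, as did that of Keap1. Keap1, Gclc, Gclm, Srxn1 and Txnrd1 passed under each of the 16 other settings tried, including the 8 that left out 1 mouse. Quantile normalization left the 8 calls standing, added Prdx1 and moved the share of higher calls among all genes called at 6 hr from 39.2 to 50.8%.

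**Figure D1:**
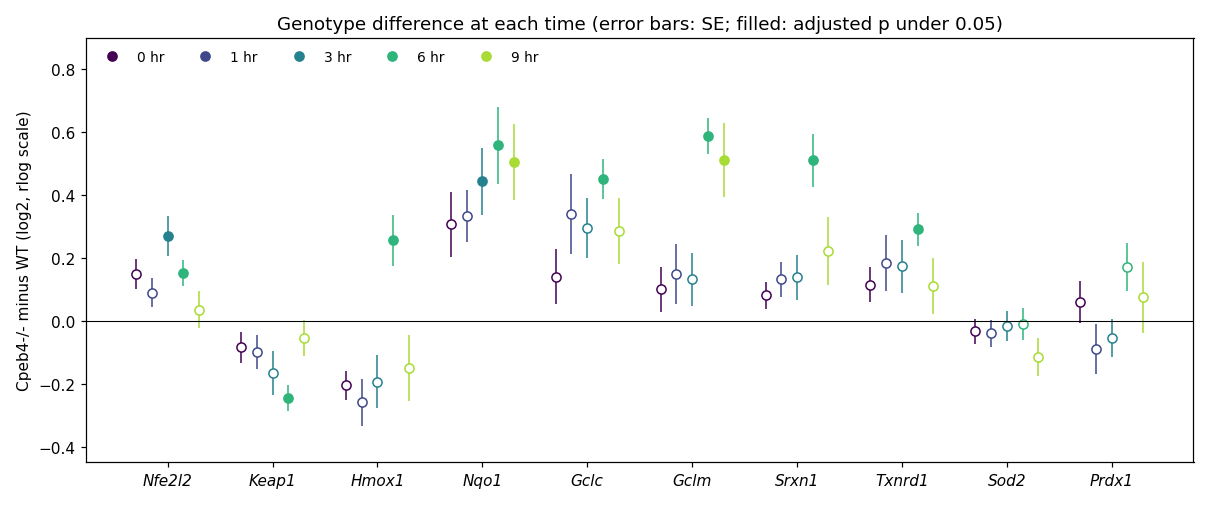
Difference in rlog level (log2, Cpeb4-/- minus WT) of the 10 genes at 0, 1, 3, 6 and 9 hr of LPS, as limma estimate with SE bars from 4 mice per genotype. Filled points passed an adjusted p under 0.05, which 8 genes did at 6 hr and 2 each at 3 and 9 hr.

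Markers also moved with genotype at 6 hr. The summed level of the 8 macrophage markers, which Lyz2 dominates, ran from 19.24 to 19.32 in WT and from 18.92 to 19.14 in Cpeb4-/- libraries, and Csf1r, Cd68, Fcgr1 and Lyz2 passed as lower. The same sum was lower in Cpeb4-/- without overlap at the other 4 times too, with 18.98 to 19.29 in WT and 18.65 to 18.91 in Cpeb4-/- at 0 hr. The summed stromal markers ran from 8.54 to 8.73 in WT and from 9.19 to 9.46 in Cpeb4-/- at 6 hr. Pdgfrb carried that sum, while Col1a1, Col1a2, Col3a1 and Pdgfra were at 4.62 or below in every library. The sum of T cell genes, of which Cd4 was the highest, ran from 6.48 to 6.54 in WT and from 5.99 to 6.33 in Cpeb4-/- at 6 hr. That of mast cell and basophil genes, of which Kit was the highest, ran from 3.98 to 4.10 and from 3.31 to 3.65. The neutrophil, dendritic cell, natural killer cell and endothelial sums overlapped at that time. At 0, 1 and 3 hr the natural killer cell sum was higher in Cpeb4-/- without overlap (1.46 to 1.62 against 2.76 to 3.12 at 0 hr), as was the endothelial sum, which Kdr carried. The mast cell sum was lower at 0 and 1 hr. At 9 hr the endothelial sum (9.67 to 10.12 in WT, 10.52 to 11.03 in Cpeb4-/-) and the stromal sum (7.88 to 8.27, 8.36 to 9.01) were both higher in Cpeb4-/-. The part of these shifts in the differences of the 10 genes was not tested.

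Nfe2l2 encodes NRF2 itself. Its mean level in 4 WT mice was 12.65, 13.59, 12.99, 13.40 and 12.91 at the 5 successive times, with SDs from 0.035 to 0.13. It thus peaked within 1 hr of LPS, with a rise of 0.94 (SE 0.060, adjusted p = 7.02e-11). On the deposited scale it stayed above its starting level in both genotypes, but after quantile normalization only the rise at 1 hr kept its sign (0.68 in WT), and the WT values at 3, 6 and 9 hr became -0.25, -0.076 and -0.27. Between the genotypes, the libraries at 3 hr read 12.89, 13.08, 12.86 and 13.12 in WT mice 25, 69, 87 and 88, and 13.30, 13.21, 13.25 and 13.27 in Cpeb4-/- mice 2, 3, 55 and 62. All 4 Cpeb4-/- libraries lay above all 4 WT ones, by 0.27 on average (SE 0.064, adjusted p = 0.0458). At 6 hr the difference was smaller, at 0.15 (SE 0.042, adjusted p = 0.0273), again without overlap. It was also 0.15 at 0 hr (SE 0.047, adjusted p = 0.148), without overlap, and 0.090 at 1 hr (adjusted p = 0.191), where neither passed. In the interaction test the difference at 6 hr departed from that at 0 hr by only 0.0028 (SE 0.071, adjusted p = 0.991). At 9 hr the genotype difference was 0.035 (SE 0.059, adjusted p = 0.729). The call at 3 hr was lost with batch as a covariate (adjusted p = 0.0807) and when mouse 2, 3, 55, 62, 25 or 87 was left out (adjusted p from 0.0927 to 0.14). That at 6 hr was lost without mouse 2, 3, 55, 25, 69 or 87 (adjusted p from 0.0506 to 0.0839). Both calls were also lost without the low-value filter (adjusted p = 0.116 and 0.0541) and without a variance trend in limma (0.0878 and 0.065).

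Keap1 encodes the adaptor that hands NRF2 to the ubiquitin ligase. The 5 successive WT means were 10.96, 10.64, 11.51, 12.19 and 11.83 (n = 4, SDs from 0.053 to 0.11). It fell by 0.32 within 1 hr (SE 0.055, adjusted p = 1.00e-04) and then rose by 1.23 at 6 hr (SE 0.055, adjusted p = 2.93e-14), and these directions held after quantile normalization (-0.46 and 0.78). Cpeb4-/- cells followed the same course to a lower peak. At 6 hr the WT libraries read 12.11, 12.22, 12.22 and 12.19 in mice 25, 69, 87 and 88, and the Cpeb4-/- libraries 11.90, 11.96, 12.01 and 11.90 in mice 2, 3, 55 and 62. The ranges did not overlap and Cpeb4-/- cells were lower by 0.24 (SE 0.042, adjusted p = 0.00249). At 0, 1, 3 and 9 hr the differences were -0.084, -0.098, -0.16 and -0.054, and none passed. The interaction test did not show that the difference at 6 hr departed from that at 0 hr (-0.16, SE 0.078, adjusted p = 0.31). The antisense overlap noted above applies to each of these values.

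**Figure D2:**
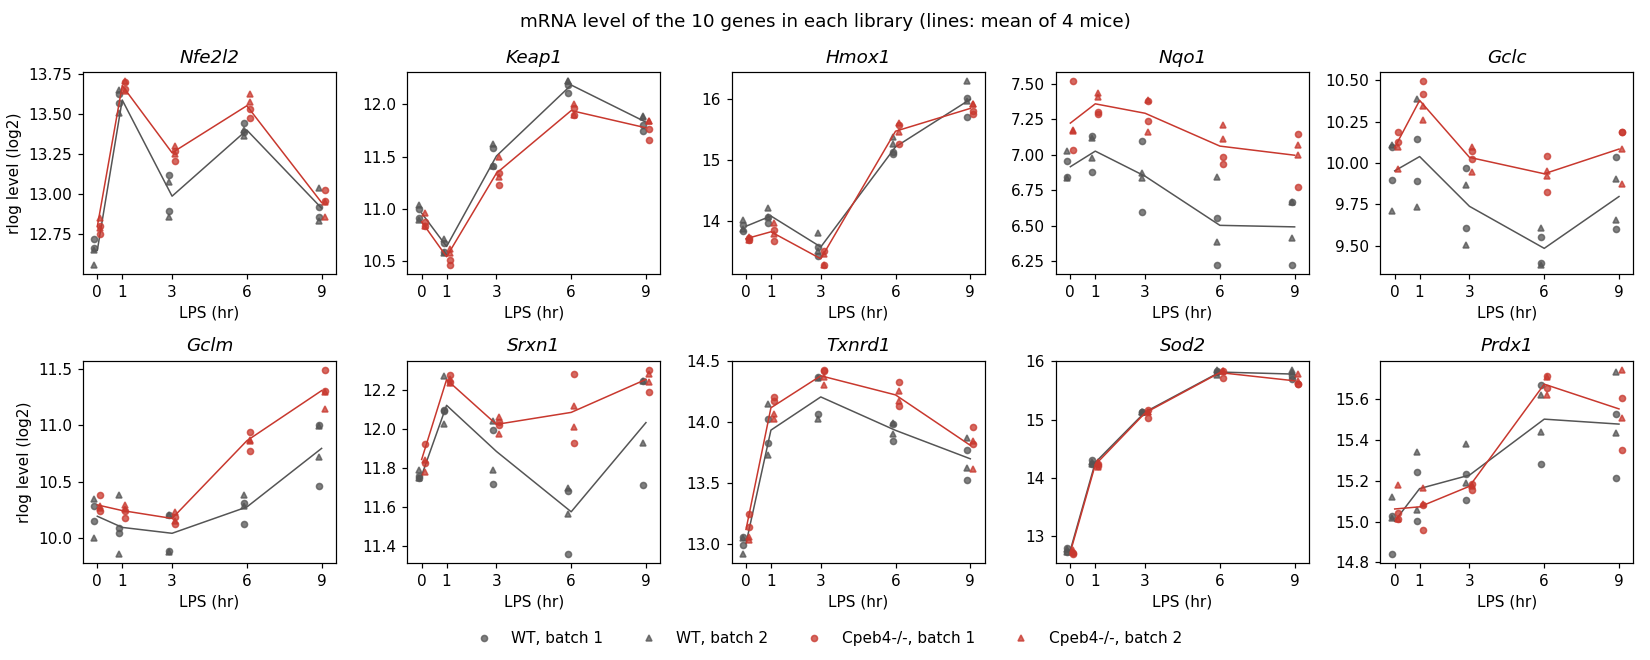
Level (rlog, log2) of each of the 10 genes in all 40 libraries against hours of LPS, with WT in grey, Cpeb4-/- in red, batch 1 as circles, batch 2 as triangles and lines through the means of 4 mice. The genotypes separate for Gclc, Gclm, Nqo1, Srxn1 and Txnrd1 at 6 hr, while the Sod2 lines run together.

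Gclc and Gclm encode the catalytic and modifier subunits of glutamate-cysteine ligase, which carries out the rate-limiting step of glutathione synthesis. Gclm read 10.13, 10.38, 10.29 and 10.31 at 6 hr in WT mice 25, 69, 87 and 88. In Cpeb4-/- mice 2, 3, 55 and 62 it read 10.87, 10.95, 10.87 and 10.77. The lowest Cpeb4-/- library lay well above the highest WT one, and the difference was 0.59 (SE 0.057, adjusted p = 0.000112), the smallest adjusted p of the 10 genes. The within-batch differences were 0.64 and 0.54. In WT cells Gclm had not left its starting level at 6 hr (0.082, SE 0.12, adjusted p = 0.547) and rose by 0.60 at 9 hr (SE 0.12, adjusted p = 0.000188). In Cpeb4-/- cells the rise was 0.57 at 6 hr (SE 0.057, adjusted p = 1.12e-08) and 1.01 at 9 hr (SE 0.057, adjusted p = 1.37e-12). These 3 rises kept their sign and passed after quantile normalization (0.48, 0.35 and 0.86).

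Gclm was also higher in Cpeb4-/- cells at 9 hr. WT mice 25, 69, 87 and 88 read 10.46, 10.99, 10.72 and 11.01, and Cpeb4-/- mice 2, 3, 55 and 62 read 11.14, 11.49, 11.29 and 11.31. The ranges did not overlap and the difference was 0.51 (SE 0.12, adjusted p = 0.0272). It did not pass without mouse 3, 55, 62, 25 or 87 (adjusted p from 0.0605 to 0.0837). At 0, 1 and 3 hr the differences were 0.10, 0.15 and 0.13, and none passed.

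Gclc took another course with time. Its 5 successive WT means were 9.95, 10.04, 9.74, 9.48 and 9.80 (n = 4, SDs from 0.11 to 0.29), with a fall at 6 hr of 0.47 (SE 0.13, adjusted p = 0.00333) that kept its sign after quantile normalization (-0.53). In Cpeb4-/- cells it rose by 0.28 at 1 hr (SE 0.069, adjusted p = 0.00217), and the change at 6 hr was -0.16 (SE 0.069, adjusted p = 0.0422). The latter call was lost without mouse 3 (adjusted p = 0.0816) or mouse 62 (0.222). At 6 hr the WT libraries read 9.39, 9.61, 9.38 and 9.55 in mice 25, 69, 87 and 88, against 9.92, 10.04, 9.95 and 9.82 in Cpeb4-/- mice 2, 3, 55 and 62. No ranges overlapped, and the difference was 0.45 (SE 0.063, adjusted p = 0.000907). In the other 4 comparisons it was 0.14, 0.34, 0.30 and 0.29, where the ranges overlapped and none passed.

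Srxn1, Txnrd1 and Prdx1 belong to the thioredoxin system, in which TXNRD1 passes electrons from NADPH to thioredoxin, PRDX1 reduces hydrogen peroxide and SRXN1 restores overoxidized peroxiredoxins. Srxn1 at 6 hr read 11.36, 11.70, 11.56 and 11.68 in WT mice 25, 69, 87 and 88, and 12.12, 12.28, 12.01 and 11.93 in Cpeb4-/- mice 2, 3, 55 and 62. Each Cpeb4-/- library was above each WT library, with a difference of 0.51 (SE 0.083, adjusted p = 0.00191). At 0, 1, 3 and 9 hr the differences were 0.082, 0.13, 0.14 and 0.22 and did not pass. Srxn1 rose within 1 hr in WT (0.36, SE 0.10, adjusted p = 0.00975) and in Cpeb4-/- cells (0.41, SE 0.054, adjusted p = 2.73e-06). The WT rise at 1 hr was lost without mouse 69 (adjusted p = 0.0503), as was that at 9 hr (0.27) without mouse 69 (0.116) or mouse 88 (0.165). At 6 hr the WT value was -0.19 (SE 0.10, adjusted p = 0.105) and the Cpeb4-/- value 0.24 (SE 0.054, adjusted p = 0.000398). With the mouse as a block in limma the WT fall passed (adjusted p = 0.0166). After quantile normalization the WT and Cpeb4-/- values became -0.69 and -0.27, so the Cpeb4-/- value changed sign while remaining above the WT value. There the WT rise at 1 hr came down to 0.17 and did not pass (adjusted p = 0.181), while the Cpeb4-/- rise at 1 hr was 0.22 and passed (0.0012). At 3 hr 0.12 in WT became -0.28 and 0.18 in Cpeb4-/- became -0.22. At 9 hr 0.27 in WT became -0.10, and 0.41 in Cpeb4-/- became 0.056 and did not pass (adjusted p = 0.336).

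Txnrd1 rose early in both genotypes, in WT by 0.93 at 1 hr (SE 0.093, adjusted p = 7.83e-08) and 1.20 at 3 hr (SE 0.093, adjusted p = 3.86e-10), and declined afterwards. The values at 6 and 9 hr in WT, 0.93 and 0.69, came down to 0.029 and 0.10 after quantile normalization and did not pass there. At 6 hr WT mice 25, 69, 87 and 88 read 13.85, 13.99, 13.91 and 13.99, and Cpeb4-/- mice 2, 3, 55 and 62 read 14.18, 14.33, 14.26 and 14.14. The ranges did not overlap, with a difference of 0.29 (SE 0.053, adjusted p = 0.00361). The differences at the other times ran from 0.11 to 0.18 and did not pass.

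Prdx1 did not pass between the genotypes at any time, with differences from -0.090 at 1 hr to 0.17 at 6 hr (SE 0.077, adjusted p = 0.154). After quantile normalization the value at 6 hr was 0.24 and passed (adjusted p = 0.0376). At 6 hr mouse 25 had the lowest WT level, 15.28, while the other 3 WT libraries read 15.44 to 15.67 and the 4 Cpeb4-/- libraries 15.62 to 15.71. Prdx1 rose with LPS at 6 and 9 hr in WT (0.50 and 0.48) and in Cpeb4-/- cells (0.61 and 0.49). After quantile normalization the WT values became -0.33 and -0.015 and the Cpeb4-/- values -0.19 and 0.069, so the direction of this response depends on the scale.

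Hmox1 encodes heme oxygenase 1, which breaks heme down to biliverdin, iron and carbon monoxide. Its successive WT means were 13.92, 14.08, 13.58, 15.22 and 16.00 (n = 4, SDs from 0.073 to 0.24). It fell by 0.34 at 3 hr (SE 0.099, adjusted p = 0.00473) and rose by 1.30 at 6 hr and 2.08 at 9 hr (SE 0.099 for both), or 4.24-fold at 9 hr. In Cpeb4-/- cells the changes were -0.33, 1.77 and 2.14 (SE 0.073). After quantile normalization the WT changes were -0.96, 0.43 and 1.56 and the Cpeb4-/- changes -0.92, 1.00 and 1.73, all past the threshold and with unchanged signs. The genotype difference changed sign with time. At 0 hr WT mice 25, 69, 87 and 88 read 13.93, 14.01, 13.88 and 13.85 and Cpeb4-/- mice 2, 3, 55 and 62 read 13.74, 13.69, 13.68 and 13.72. All Cpeb4-/- libraries were below the WT ones there, by 0.21 (SE 0.048), but this did not pass (adjusted p = 0.0654). At 1 hr the difference was -0.26 and at 3 hr -0.19, neither past the threshold.

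At 6 hr Hmox1 stood above WT, with 15.61, 15.26, 15.46 and 15.58 in Cpeb4-/- mice 2, 3, 55 and 62 against 15.13, 15.37, 15.27 and 15.10 in WT mice 25, 69, 87 and 88. Mouse 3 fell inside the WT range, and the difference was 0.26 (SE 0.081, adjusted p = 0.0493). The call was lost without mouse 2, 55, 62, 25, 87 or 88 (adjusted p from 0.0649 to 0.142). At 9 hr the difference was -0.15 (SE 0.11, adjusted p = 0.389).

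Nqo1 encodes a quinone reductase and is a classical NRF2 target. It was the member with the lowest rlog values, between 6.22 and 7.52, where the rlog transform draws differences in more strongly. From 0 to 9 hr its WT means were 6.92, 7.03, 6.85, 6.50 and 6.49 (n = 4, SDs from 0.090 to 0.26). The falls in WT of 0.41 at 6 hr and 0.42 at 9 hr passed (SE 0.13 for both), yet after quantile normalization they were -0.0059 and -0.088 and did not. In Cpeb4-/- cells the value at 9 hr, -0.23 (adjusted p = 0.0438), became 0.054 on that scale. It was also lost without any of mice 2, 3, 55 and 62 (adjusted p from 0.0731 to 0.121).

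Between the genotypes Nqo1 was separated at all 5 times, with every Cpeb4-/- library above every WT library. The 5 times come from the same mice and are not separate evidence. At 0 hr the ranges nearly met, with WT mouse 69 at 7.027 and Cpeb4-/- mouse 62 at 7.033. Of all genes tested, 7.55, 7.05 and 8.35% were separated in that direction at 1, 3 and 9 hr. The difference was 0.31 at 0 hr (SE 0.10, adjusted p = 0.174) and 0.33 at 1 hr (SE 0.082, adjusted p = 0.0663), where it did not pass. It was 0.44 at 3 hr (SE 0.11, adjusted p = 0.0499), 0.56 at 6 hr (SE 0.12, adjusted p = 0.00964) and 0.50 at 9 hr (SE 0.12, adjusted p = 0.0312), where it passed. At 6 hr WT mice 25, 69, 87 and 88 read 6.23, 6.85, 6.39 and 6.55 and Cpeb4-/- mice 2, 3, 55 and 62 read 7.21, 6.98, 7.11 and 6.94. WT mouse 69 came nearest to the Cpeb4-/- range. The call at 3 hr was lost with batch as a covariate (adjusted p = 0.0842) and without mouse 2, 3, 55, 62, 25, 69 or 87 (adjusted p from 0.0837 to 0.135), and that at 9 hr without mouse 3, 55, 25 or 87 (adjusted p from 0.0845 to 0.0906). At 6 hr it passed without any mouse, but not when the low-value filter was dropped (adjusted p = 0.0591).

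Sod2 encodes the manganese superoxide dismutase of mitochondria. It had the largest LPS response of the 10 genes at 6 and 9 hr and did not pass between the genotypes. In WT it rose by 1.50, 2.37, 3.05 and 3.02 over the 4 LPS times (SE 0.040 for each), an 8.29-fold rise at 6 hr, and in Cpeb4-/- cells by 1.50, 2.38, 3.08 and 2.93 (SE 0.045). After quantile normalization the rises stayed between 1.16 and 2.57. The 6 hr libraries ran from 15.76 to 15.85 in WT and from 15.71 to 15.84 in Cpeb4-/- cells. The genotype difference there was -0.0096 (SE 0.050, adjusted p = 0.925), and at other times it lay between -0.11 and -0.015. Its sign at 3 and 6 hr was kept in 14 and 13 of the 16 other settings.

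**Figure D3:**
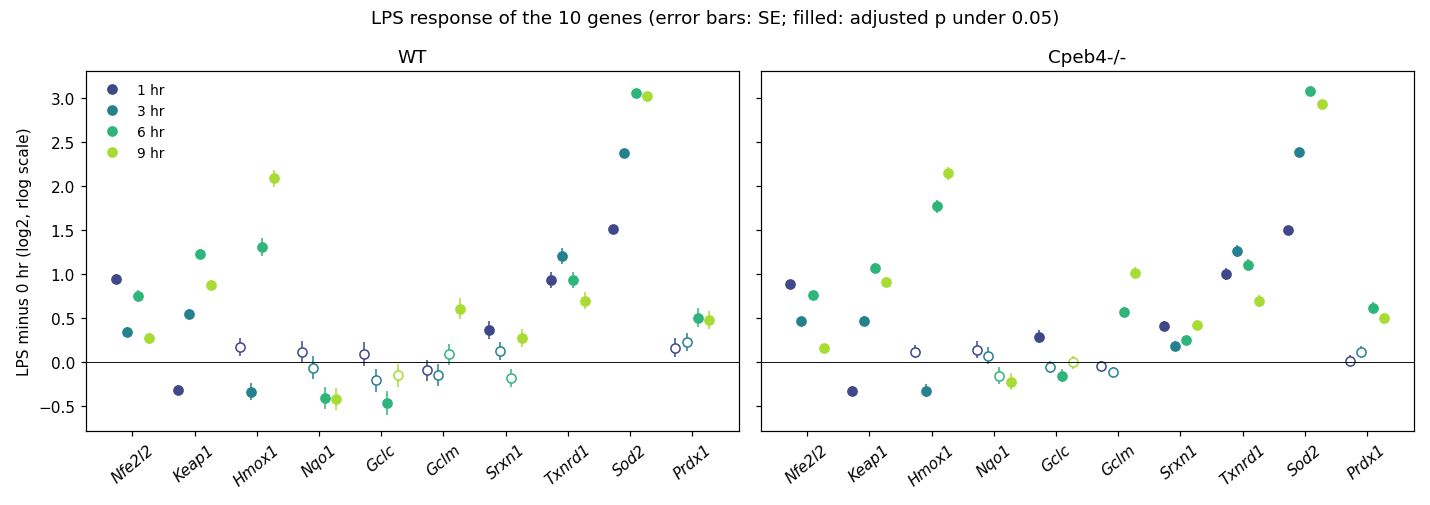
Change in rlog level (log2, LPS minus 0 hr) of the 10 genes at 1, 3, 6 and 9 hr in WT (left) and Cpeb4-/- (right) BMDMs, as limma estimate with SE bars from 4 mice. Filled points passed an adjusted p under 0.05. Sod2 and Hmox1 rise most at 6 and 9 hr, and Gclm at 6 hr passes in Cpeb4-/- and not in WT.

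Counted over the group, 4 of the 10 genes passed as higher and 1 as lower at 1 hr of LPS in WT, against 17.3 and 16.6% of all genes tested. At 3 hr 4 were higher and 1 lower (32.5 and 35.3% of all genes), at 6 hr 6 and 2 (38.7 and 39.2%), and at 9 hr 8 and 1 (35.9 and 35.6%). In Cpeb4-/- cells 5 were higher and 1 lower at 1 hr (23.8 and 20.0% of all genes) and likewise at 3 hr (34.4 and 36.9%). At 6 and 9 hr 8 were higher and 1 lower (39.0 and 40.1%, and 36.4 and 36.4%). LPS thus changed most of the genes tested at 3, 6 and 9 hr, and the shares of members are to be read against that background. These fits treated the libraries of a mouse as independent. With the mouse as a block, Hmox1 at 1 hr (higher, adjusted p = 0.0291), Prdx1 at 3 hr (higher, 0.0233) and Srxn1 at 6 hr (lower, 0.0166) also passed in WT. Of all genes 40.3, 72.1 and 81.2% then passed at 1, 3 and 6 hr. In Cpeb4-/- the block left the member calls unchanged. Of the 80 member changes with LPS, 23 had opposite signs on the deposited and the quantile-normalized scale. Quantile normalization also moved the share of higher calls among all genes called at 1 hr from 51.0 to 37.9% in WT and from 54.3 to 38.1% in Cpeb4-/-. After it 5 members passed at 9 hr in WT in place of 9, beside 70.2% of all genes. At 3 hr in Cpeb4-/- all 10 passed in place of 6, 4 as higher and 6 as lower, beside 72.4% of all genes.

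Between the genotypes, no member passed at 0 hr, when 0.741% of all genes passed as higher and 0.565% as lower. Nfe2l2 and Nqo1 were higher and Hmox1 lower without overlap at that time, while 5.51% of all genes were separated in the higher and 5.04% in the lower direction. No member passed at 1 hr (background 0.976 and 0.938%). At an unadjusted p under 0.05 in limma, 3 members were counted at 0 hr and 4 at 1 hr, against 17.6 and 35.3% of all genes. At 3 hr Nfe2l2 and Nqo1 were higher (1.81 and 1.87% of all genes passed as higher and lower), and at 9 hr Nqo1 and Gclm (4.69 and 3.22%). When all 40 libraries were fitted together with the mouse as a random block, the count was 8 at 6 hr with the same 8 genes. It was 3 at 1 hr (Nqo1 and Gclc higher, Hmox1 lower), where 33.0% of all genes then passed, and 5 at 9 hr (Nqo1, Gclc, Gclm and Srxn1 higher, Sod2 lower), where 18.1% passed. Leaving out mouse 2 gave 1 call at 1 hr (Hmox1, lower) with 5.50% of all genes. Leaving out WT mouse 69 gave 4 calls at 1 hr with 18.6% of all genes, and leaving out WT mouse 88 gave 3 at 3 hr with 19.8%. At 3 hr no member passed without mouse 2, 3, 55, 62, 25 or 87 and 1 passed without mouse 69. At 9 hr none passed without mouse 3, 55, 25 or 87, and 1 without mouse 62. Leaving out mouse 2 gave 3 at 9 hr, with 35.2% of all genes.

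Whether the genotype difference at a given time of LPS departed from that at 0 hr was tested as an interaction over all 40 libraries. At 6 hr 3 members passed, against 2.94% of all genes. Hmox1 shifted by 0.46 (SE 0.13, adjusted p = 0.0377), from below WT to above it, Gclm by 0.49 (SE 0.14, adjusted p = 0.0497) and Srxn1 by 0.43 (SE 0.12, adjusted p = 0.044). With the mouse as a fixed block the same 3 genes passed, and 7.88% of all genes. After quantile normalization Hmox1 and Srxn1 passed and Gclm did not (0.43, adjusted p = 0.1), and 1.73% of all genes passed. Each of the 3 calls was lost without some of the mice. No member passed when mouse 2, 55, 62, 25 or 88 was left out, and 1 passed without mouse 3 or mouse 87. Nqo1, Gclc, Txnrd1, Keap1 and Nfe2l2 shifted by 0.25, 0.31, 0.18, -0.16 and 0.0028 and did not pass. Their differences at 6 hr were thus not shown to depart from those at 0 hr. No member passed at 1, 3 or 9 hr, when 0.00763, 0.206 and 1.76% of all genes passed. The unadjusted limma p was under 0.05 for 0, 0 and 1 of them. With the mouse block Gclm passed at 9 hr (0.41, adjusted p = 0.0151), as did 4.99% of all genes. The LPS responses and the genotype differences share libraries, and they are not separate evidence.

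The SD among the 4 WT mice was the larger one in 37 of the 50 pairs of gene and time, a description that was not tested. At 9 hr it was larger for 8 of the 10 genes, with a median SD of 0.21 in WT and 0.115 in Cpeb4-/-. There WT mouse 25 had the lowest level of the 4 WT mice in 8 of the 10 genes, and mouse 69 the highest in 6 and mouse 88 in 4. The mean deviation from the WT group mean over the 10 genes was -0.20 for mouse 25, 0.17 for mouse 69, 0.087 for mouse 88 and -0.054 for mouse 87. Mouse 69 was also highest in 7 genes at 6 hr and in 6 at 1 hr, and mouse 25 lowest in 6 at 6 hr. Mice 25 and 88 belong to batch 1 and mice 69 and 87 to batch 2, so each batch held a mouse above and a mouse below the mean. The part of batch in these deviations was not tested. In Cpeb4-/- cells the mean deviations at 9 hr ran from -0.059 for mouse 62 to 0.060 for mouse 3.

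The 6 lists of redox genes, 96 genes in all with the 10 members among them, set the group beside its pathway. Of the other 86 genes 83 were tested at 6 hr between the genotypes. Of these 15 were higher (18.1%, against 6.40% of all genes), 7 were lower (8.43%, against 9.92%) and 61 did not pass, with a median difference of -0.029 beside -0.015 for all genes. At 0 and 1 hr none of the 83 passed in limma (15 and 39 at an unadjusted p under 0.05), at 3 hr 1 was lower, and at 9 hr 8 were higher and 1 lower (9.64 and 1.20%, against 4.69 and 3.22% of all genes). The count at 6 hr fell from 22 to 13 without mouse 2, with 10.3% of all genes passing. At 0 hr 1 passed without mouse 55, 69 or 88. At 1 hr 3 passed without mouse 2 (5.50% of all genes) and 28 without mouse 69, where the share of all genes, given above, also rose. At 9 hr the count of 9 was 37 without mouse 2 (35.2% of all genes), 5 without mouse 3 (3.94%) and 4 without mouse 25. At 3 hr the count of 1 was 20 without mouse 88. Over all genes 2584 then passed in place of 481, and 387 in place of 1029 at 9 hr without mouse 25.

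**Figure D4:**
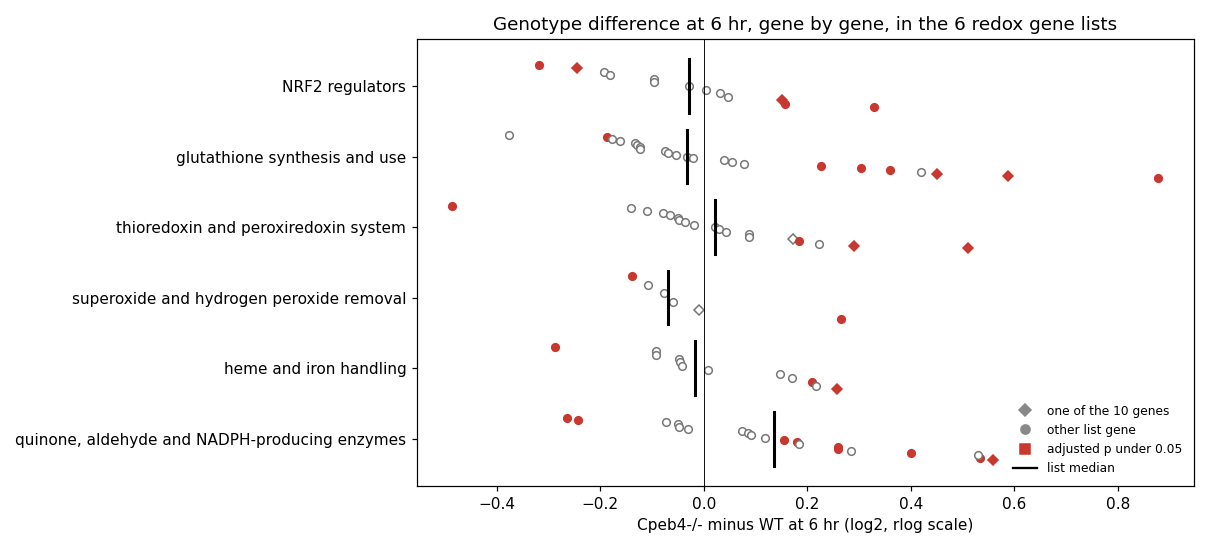
Difference in rlog level (log2, Cpeb4-/- minus WT) at 6 hr for each tested gene of the 6 redox gene lists, with diamonds for the 10 genes, circles for other list genes, red for an adjusted p under 0.05 and a black bar at each list's median. The list medians lie between -0.069 and 0.136, while single genes reach 0.88.

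In the list of glutathione synthesis and use, 4 of 21 genes other than the members were higher at 6 hr and 1 was lower. Slc7a11, which encodes the cystine carrier that supplies cysteine for glutathione, had the largest difference of any list gene. It ran from 10.90 to 11.13 in WT and from 11.66 to 12.19 in Cpeb4-/- libraries, a difference of 0.88 (SE 0.096, adjusted p = 0.000221) or 1.84-fold. At 9 hr its ranges overlapped and its difference was 0.73 (SE 0.20, adjusted p = 0.0543). Abcc1, which encodes an exporter of glutathione conjugates, was higher by 0.36 at 6 hr (SE 0.058, adjusted p = 0.00185) and 0.47 at 9 hr (SE 0.10, adjusted p = 0.0238), the latter lost without mouse 3, 55, 62, 25, 87 or 88 (adjusted p from 0.0531 to 0.0793). Mgst1, a microsomal glutathione transferase gene, was lower at 3 hr by 0.26 (SE 0.058, adjusted p = 0.0409). That call held only when mouse 88 was the one left out (adjusted p from 0.065 to 0.125 without another mouse).

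Among 19 quinone, aldehyde and NADPH-producing enzyme genes other than Nqo1, 6 were higher at 6 hr and 2 were lower. Cbr3, a carbonyl reductase gene, was higher by 0.53 at 6 hr (SE 0.091, adjusted p = 0.00252) and 0.47 at 9 hr (SE 0.12, adjusted p = 0.0427). The 9 hr call was lost without mouse 3, 55, 25, 69, 87 or 88 (adjusted p from 0.0523 to 0.111). At 9 hr 4 of the 19 were higher and none lower, and the list median with Nqo1 was 0.134 against 0.136 at 6 hr. Of 16 further thioredoxin and peroxiredoxin genes 1 was higher and 1 lower at 6 hr. The lower one was Sesn3, a sestrin gene, at -0.49 (SE 0.10, adjusted p = 0.00768). Of 11 further NRF2 regulators 2 were higher and 1 lower, the latter Mafk, a small MAF partner of NRF2, at -0.32 (SE 0.078, adjusted p = 0.0164). The Mafk call was lost without mouse 2 (adjusted p = 0.0546).

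Of 5 further genes for superoxide and hydrogen peroxide removal 1 was higher and 1 lower at 6 hr. Cat, the catalase gene, was higher at 9 hr by 0.46 (SE 0.084, adjusted p = 0.0117). Of 11 further heme and iron genes 1 was higher and 1 lower at 6 hr. The lower one was Slc11a2, which encodes an iron transporter, at -0.29 (SE 0.042, adjusted p = 0.00118). At 9 hr it was lower by 0.23 (SE 0.059, adjusted p = 0.0419), a call lost without any of mice 3, 55, 62, 25, 69, 87 and 88 (adjusted p from 0.052 to 0.109).

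With LPS in WT, 15, 25, 33 and 34 of the 83 genes passed as higher over the 4 times, and 6, 19, 40 and 40 as lower. The shares that were higher, 18.1, 30.1, 39.8 and 41.0%, lay near those of all genes tested (17.3, 32.5, 38.7 and 35.9%). The shares that were lower were 7.23, 22.9, 48.2 and 48.2%, against 16.6, 35.3, 39.2 and 35.6%, and the median change of the 83 genes ran from -0.18 at 6 hr to 0.071 at 1 hr, beside -0.020 and 0.024 for all genes. Maff, another small MAF gene, rose by 4.10 at 1 hr (SE 0.077), or 17.2-fold, and Sqstm1, whose product p62 binds KEAP1, by 1.75 (SE 0.083). Slc7a11 rose by 1.32, 2.78, 3.05 and 2.51 over the same 4 times (SE 0.19 for each). Prdx5 and Gsr, the genes for a peroxiredoxin and for glutathione reductase, rose by 2.09 and 1.99 at 6 hr and by 2.35 and 1.84 at 9 hr. Among those that fell were Txnip, which encodes an inhibitor of thioredoxin, by 1.90 at 1 hr (SE 0.052), and Osgin1 by 1.83 at 3 hr (SE 0.056). Sesn1, another sestrin gene, changed by -1.08, -3.04, -3.21 and -2.21 over the 4 times, and Slc40a1, which encodes the iron exporter ferroportin, by -0.66, -2.27, -2.43 and -2.23. Trim16 fell by 2.22 at 6 hr and Ggt5, a gamma-glutamyl transferase gene, by 1.99 at 9 hr. These changes kept their direction and passed in each alternative setting that kept the gene.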

How the data were processed

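RNA from BMDMs was sequenced after poly(A) selection with an unstranded NEBNext Ultra II kit. Per the labels and the methods, the authors aligned reads with STAR 2.3.0e to mm10, counted them with featureCounts and deposited log2 values from the rlog transform of DESeq2, for 27179 genes in 40 libraries (-2.40 to 19.4). The counts, and so the depth, were not used here. The 10 genes, the gene lists and the tests were chosen with earlier results of these data known. limma 3.58.1 (R 4.3.3) with a mean-variance trend was fitted per time for genotype (8 libraries), within genotype for LPS (20) and over 40 for the interaction, on genes averaging log2 of 5 or more (13008 to 13118), with Benjamini-Hochberg adjustment. Other list genes were named where the adjusted p was under 0.05 and the 4 libraries of each group did not overlap, with at most 3 rises and 3 falls per comparison. The 5 libraries of a mouse are paired by animal. The main LPS and interaction fits did not use this pairing, which entered only as the block among the alternatives. As a check, deviations from the group means were compared between libraries of the same mouse, where the median Pearson r was 0.29 and 68 of 80 exceeded 0.1, and between mice of the genotype, where the median was -0.091. No libraries were identical, and replicate pairs correlated at 0.998 to 0.999. The fits were also run on simulated data with independent libraries, which cannot check how the pairing by mouse affects them. Alternatives varied the filter, the variance model, the normalization, batch, block and mice.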

Additional observations from a re-analysis of the deposited data

Results flagged for a closer look

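In 1 of the 100 groups of 4 libraries formed by the 10 genes, 2 genotypes and 5 times, a library stood far from the other 3 by Dixon's criterion. It was Sod2 at 6 hr in Cpeb4-/- mouse 3, at 15.71, against 15.83 to 15.84 in the other 3 mice. Chance sets about 1 in 20 such groups apart. The gap was small in absolute terms, and Sod2 did not pass between the genotypes with or without this mouse.

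The genotype difference at 6 hr departed from that at 0 hr, by the interaction test, for 3 of the 10 genes, against 2.94% of all genes. The shift was 0.46 for Hmox1, 0.49 for Gclm and 0.43 for Srxn1, all towards higher levels in Cpeb4-/- cells. With 1 of the 8 mice left out in turn, these calls were lost in 6, 7 and 7 of the fits. None passed without the low-value filter.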

How the results depend on the processing

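The number of the 10 genes that passed between the genotypes was 8 at 6 hr, 5 when the low-value filter was dropped and 6 to 7 without single mice. The 0 calls at 1 hr became 3 in the fit of all 40 libraries without a replicate block, 3 with the mouse as replicate block, and 0 to 4 without single mice. Of all genes, 31.9% then passed without the block and 33% with it. The 2 calls at 3 hr became 0 without the filter, 0 without a variance trend, 0 with batch as a covariate, 1 after quantile normalization and 0 to 3 without single mice. The 2 calls at 9 hr became 0 without the filter, 1 without a trend, 1 after quantile normalization, 5 with the replicate block and 0 to 3 without single mice. Of all genes, 18.1% passed at 9 hr with the replicate block and 35.2% without mouse 2. The 3 interaction calls at 6 hr became 0 without the filter, 1 without a trend, 2 after quantile normalization and 0 to 2 without single mice. The 0 interaction calls at 9 hr became 1 with the replicate block, with 4.99% of all genes. With LPS, quantile normalization changed 9 calls to 5 at 9 hr in WT and 6 to 10 at 3 hr in Cpeb4-/-, where 70.2 and 72.4% of all genes then passed. The block changed no other count of member calls by over 1.5 times. Dropping the filter adds genes to the adjustment, and it also changed the SEs. At 6 hr that of Hmox1 went from 0.081 to 0.096 and that of Nfe2l2 from 0.042 to 0.036. The causes of the changed counts were not tested.

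Of other list genes, 0 passed at 0 hr, and 1 with batch, 2 in the fit of 40 libraries without a block, 4 with the block and 0 to 1 without single mice. At 1 hr 0 became 34 without a block, 35 with the block and 0 to 28 without single mice. At 3 hr 1 became 0 without the filter, 0 without a trend, 0 after quantile normalization, 0 with batch, 4 without a block, 5 with the block and 0 to 20 without single mice. At 6 hr 22 became 14 without the filter and 13 to 26 without single mice. At 9 hr 9 became 4 without the filter, 16 with batch, 16 without a block, 17 with the block and 4 to 37 without single mice. The share of all genes that passed moved as well. Without and with the block it was 31.9 and 33% at 1 hr, 10 and 10.6% at 3 hr, and 17.4 and 18.1% at 9 hr. At 9 hr it was 13.7% with batch and 35.2% without mouse 2.

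Of values that had passed, those that changed sign did so after quantile normalization and under no other setting. There the LPS response of Nfe2l2 in WT was -0.25, -0.076 and -0.27 at 3, 6 and 9 hr and in Cpeb4-/- -0.11, -0.045 and -0.38. That of Prdx1 was -0.33 and -0.015 in WT at 6 and 9 hr and -0.19 in Cpeb4-/- at 6 hr. That of Srxn1 was -0.10 in WT at 9 hr and -0.22 and -0.27 in Cpeb4-/- at 3 and 6 hr, and that of Nqo1 0.054 in Cpeb4-/- at 9 hr. Over all genes, the genotype calls at 0, 1, 3, 6 and 9 hr numbered 171, 251, 481, 2129 and 1029, and over the alternatives ran from 44 to 414, 40 to 4323, 76 to 2584, 1288 to 2331 and 387 to 4575. The interaction calls at 1, 3, 6 and 9 hr numbered 1, 27, 385 and 231 and ran from 0 to 8, 5 to 72, 84 to 1032 and 89 to 654. Quantile normalization moved the share of higher calls among interaction calls at 6 hr from 30.6 to 44.9%. Depth was unknown, and 4 mice per genotype limit the precision.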

Other observations

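Slc7a11 had the largest genotype difference of the list genes at 6 hr and also rose in WT at all 4 times of LPS. At 0 hr its 4 Cpeb4-/- libraries already lay above the 4 WT libraries, by 0.24 (SE 0.063, adjusted p = 0.0897), and at 3 hr by 0.41 (SE 0.15, adjusted p = 0.136), neither past the threshold. At 9 hr its difference was 1.10 within batch 1 and 0.36 within batch 2. Among the small MAF genes the genotype differences at 6 hr went both ways, with Maff at 0.33 (SE 0.048, adjusted p = 0.00116), Mafg at 0.16 (SE 0.046, adjusted p = 0.0371) and Mafk at -0.32. Maff and Mafg are named here after their values were seen. In WT cells at 6 hr Sod2 changed 8.29-fold with LPS and was 0.993-fold the WT level in Cpeb4-/- cells, whereas Gclm had not passed with LPS and was 1.50-fold higher in Cpeb4-/- cells.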
